A study of Mus musculus with 2 samples.

Results

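The splicing regulators described here are the SR proteins with their Tra2 relatives, the hnRNP proteins with the Ptbp family, and the regulators of tissue-specific exons, Mbnl, Esrp, Rbfox, Celf and Nova. Members were chosen by gene symbol: every probe set assigned to a single gene of these families was taken, which gave 157 of 45101 probe sets, for 50 of the 18194 genes named on the array. Of the 52 reference genes with such a symbol, Srsf7 and Hnrnpa3 had no probe set assigned to them alone, and 7 probe sets that name several genes were left out.

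The samples were 2 arrays of 1 group, replicates 1 and 2 of a mouse embryonic stem (ES) cell line with the genotype Del1.3MbWBS, a deletion of 1.3 Mb in the mouse counterpart of the Williams-Beuren syndrome region. The cells grew with leukaemia inhibitory factor and 20% serum replacement on a layer of feeder cells, so the RNA is that of a mixed culture. The labels name a single line and call the replicates biological, without saying whether they were separate cultures, so part of their spread may be technical. The design text says that the study sought genes deregulated in the syndrome, but a line without the deletion was not analysed here, and the data give levels and their spread, with no test between genotypes. None of the 50 genes lies between Gtf2i and Fkbp6, the ends of the segment in the reference gene order on chromosome 5, which holds 3 of them.

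Splicing regulators decide which exons a transcript keeps. SR proteins carry RNA recognition motifs and a tail rich in arginine and serine, and bound to exon enhancers they recruit the spliceosome. The hnRNP proteins coat nascent transcripts and often silence the same exons, and the Ptbp proteins bind pyrimidine tracts upstream of exons. The tissue-specific families act on top of this machinery, and their balance sets splicing programmes in muscle, epithelia and neurons. In mouse ES cells, low activity of the muscleblind proteins (Mbnl) is known to permit an ES cell pattern of exons.

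Values are RMA log2 values. A gene was represented by its brightest probe set, and was called above background when its mean and its value on each array exceeded a background threshold, the 95th percentile over 39 olfactory receptor genes (5.59 for the mean). Because probes differ in affinity, levels of different genes are not ranked. Over all probe sets each array had a median of 6.01. Of the 50 member genes 48 (96%) were above background, where 68.4% of all 18194 genes were. The exceptions were Srsf12 and Celf6. The 2 shares are not matched for the number of probe sets. Several probe sets were present for 37 of the 50 members and for 9012 of the 18194 genes, and each further one is another chance to pass. With the median of a gene's probe sets in place of the brightest, 42 of the 50 members were above background. The share of all genes under that rule is not given here, so this count cannot be set beside the 68.4%.

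Promoter sequences are shown for 4 members, chosen after their values were seen, as examples of CpG-rich and CpG-poor windows. Each is a RefSeq window of 300 bases in GRCm38.p6, from 250 bases before the gene's start to 50 after it, written 5′ to 3′ on the gene's strand with CpG dinucleotides in capitals. Hnrnpa0 (chr13:58128507-58128806, minus strand) has the most CpG of the members with a window, and Rbfox3 (chr11:118760992-118761291, minus strand) the fewest. Srsf12 (chr4:33209022-33209321, plus strand) is rich in CpG and was not above background, whereas Mbnl2 (chr14:120275419-120275718, plus strand) is poor in CpG and was above it.
Hnrnpa0: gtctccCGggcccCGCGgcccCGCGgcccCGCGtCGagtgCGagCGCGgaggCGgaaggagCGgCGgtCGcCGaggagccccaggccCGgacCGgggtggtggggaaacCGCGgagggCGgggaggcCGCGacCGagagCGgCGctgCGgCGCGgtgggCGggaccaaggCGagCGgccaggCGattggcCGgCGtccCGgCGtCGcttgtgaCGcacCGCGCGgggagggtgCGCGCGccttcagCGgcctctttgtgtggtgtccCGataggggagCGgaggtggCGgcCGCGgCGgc
Srsf12: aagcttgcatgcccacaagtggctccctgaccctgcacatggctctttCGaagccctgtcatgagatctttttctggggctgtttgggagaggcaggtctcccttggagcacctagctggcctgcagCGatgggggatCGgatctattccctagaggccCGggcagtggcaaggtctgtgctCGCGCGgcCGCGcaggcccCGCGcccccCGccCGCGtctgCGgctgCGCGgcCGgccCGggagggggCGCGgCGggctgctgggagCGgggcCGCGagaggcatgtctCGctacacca
Mbnl2: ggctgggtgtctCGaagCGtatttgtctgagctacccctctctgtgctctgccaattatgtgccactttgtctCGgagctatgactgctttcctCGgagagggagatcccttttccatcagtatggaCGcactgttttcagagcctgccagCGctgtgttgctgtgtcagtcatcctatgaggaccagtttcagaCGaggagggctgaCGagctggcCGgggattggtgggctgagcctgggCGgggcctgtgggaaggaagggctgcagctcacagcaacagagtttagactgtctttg
Rbfox3: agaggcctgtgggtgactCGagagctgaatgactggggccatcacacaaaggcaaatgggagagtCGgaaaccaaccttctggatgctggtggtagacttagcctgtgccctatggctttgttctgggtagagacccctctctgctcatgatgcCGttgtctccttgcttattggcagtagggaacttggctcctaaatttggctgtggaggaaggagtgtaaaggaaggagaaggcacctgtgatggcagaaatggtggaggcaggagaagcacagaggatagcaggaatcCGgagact
In these windows Hnrnpa0 had 52 CpG, Srsf12 26, Mbnl2 10 and Rbfox3 4. The ratio of observed to expected CpG, which corrects for the content of C and G, was 1.14 for Hnrnpa0, 0.73 for Srsf12, 0.43 for Mbnl2 and 0.20 for Rbfox3.

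Of the 50 members, 43 had a window in the promoter table, and for genes with several windows the median was taken. Such a median can hide a CpG-rich window, as in genes like Celf2 and Hnrnph1 with 5 windows each. Which start these cells used was not tested. The ratio exceeded 0.6 in all 12 SR and Tra2 genes, in all 19 hnRNP and Ptbp genes with a window, and in 5 of 12 tissue-specific regulators. Over the array the share was 55.8% of 14453 genes with a window, 70.03% of those above background and 23.7% of those not. The 5 tissue-specific genes above 0.6 were Celf1 (0.83), Nova1 (0.76), Mbnl3 (0.73), Nova2 (0.64) and Celf5 (0.61). The other 7 were Mbnl1 (0.58), Celf6 (0.47), Mbnl2 (0.43), Celf2 (0.37), Celf3 (0.37), Rbfox1 (0.26) and Rbfox3 (0.20). Of these 7, Celf6 alone was not above background. The letters TATAAA, searched on both strands, stood in at least 1 window of 7 of the 43 members (16.3%), against 11.5% of the array's genes. That share was 9.08% of the array's genes above background and 17.0% of those not. CCAAT, searched likewise, stood in 24 members (55.8%), against 42.0% of the array's genes, 42.9% of those above background and 40.0% of those not. A gene with several windows, such as Celf3 with 7, has more chances of a match, and the shares are not matched for this. These are matches of letters, and neither count was tested.

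**Figure D1:**
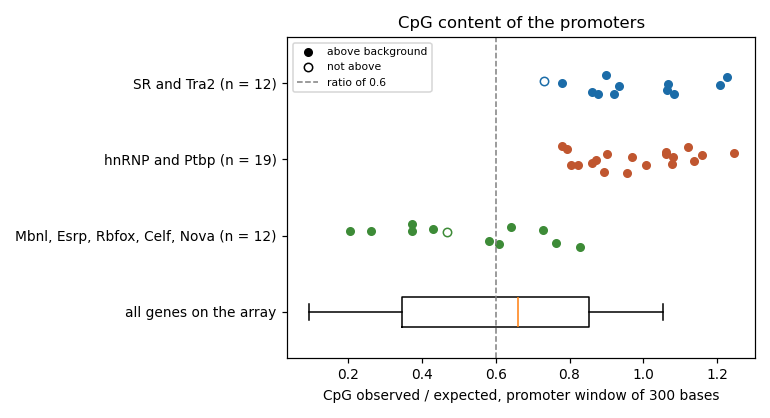
Ratio of observed to expected CpG in the promoter window (x axis, no unit) for member genes by family (points, jittered vertically; open points are genes not above background) and for all array genes with a window (box: quartiles and median; whiskers: 5th and 95th percentile). All SR, Tra2, hnRNP and Ptbp points lie right of 0.6, and 7 of the 12 tissue-specific ones lie left of it.

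SR and Tra2 transcripts were above background in 11 of 12 genes, where 68.4% of all genes were. All 11 were so by at least 4.63 log2 units. Over the array, 6073 of 18194 genes lay over 3 log2 units above the threshold. Srsf1, the founding SR protein, which favours nearby 5′ splice sites, was at 12.91 and 12.82 on replicates 1 and 2. Srsf2, also known as SC35, which binds exon enhancers, was at 12.41 and 12.32. Srsf3, the smallest SR protein, which also serves mRNA export, was at 12.83 and 12.78. These genes were slightly lower on replicate 2, by 0.098, 0.091 and 0.051 log2 units. Over all genes with a mean of 10 or more, the difference had a median of 0.012 and an SD of 0.058. It ran from -0.20 to 0.74.

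Srsf5, at 13.05 and 13.02, and Srsf6, at 12.48 and 12.43, encode classical SR proteins that bind exon enhancers. Srsf4, with the longest arginine-serine tail among the classical SR proteins, was at 10.21 and 10.23, and Srsf9, a short-tailed member, at 11.74 and 11.70. All of these stood far from the threshold on both arrays. Srsf11 was at 11.53 and 11.58. Srsf10, which becomes a repressor of splicing when heat shock removes its phosphates, was at 10.51 and 10.38, the widest gap between the replicates among the SR genes above background. Tra2a (11.09 and 11.08) and Tra2b (12.86 and 12.88), mouse relatives of the fly sex-determination factor transformer 2, bind purine-rich enhancers. Srsf12, a close relative of Srsf10, was at 3.95 and 4.18 on its only probe set, below the threshold on both arrays.

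All 22 hnRNP and Ptbp genes were above background, by at least 3.69 log2 units, where 68.4% of all genes were above it. The A and B group, which includes the best-known exon silencers, was represented by Hnrnpa0 (11.95 and 11.90), Hnrnpa1 (11.59 and 11.51) and Hnrnpa2b1 (13.04 and 13.01). Hnrnpc, which binds uridine tracts and helps measure transcript length for export, was at 13.34 and 13.37. The related genes Hnrnpd (12.01 and 12.06), Hnrnpdl (13.24 and 13.23) and Hnrnpab (13.53 and 13.51) encode proteins that also bind AU-rich RNA. No member of these groups came near the threshold on its brightest probe set.

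The G-run binding proteins are encoded by Hnrnpf (13.45 and 13.46), Hnrnph1 (12.23 and 12.16), Hnrnph2 (11.05 and 10.99) and Hnrnph3 (9.43 and 9.45). Hnrnpk, which binds cytidine-rich RNA and DNA, was at 13.32 and 13.36. Hnrnpl, a binder of CA repeats, was at 10.51 and 10.54, and its paralog Hnrnpll, known for the splicing of the CD45 transcript in T cells, at 10.79 and 10.80. Their replicates lay within 0.07 log2 units of each other.

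Hnrnpu, also a scaffold attachment factor of chromatin, was at 12.61 and 12.60, and its relatives Hnrnpul1 and Hnrnpul2 at 10.61 and 10.62 and at 9.90 and 9.88. Hnrnpm was at 11.19 and 11.11, and Hnrnpr at 11.67 and 11.58. Hnrnpa1 and other members have many processed pseudogenes, and probe sets with the suffix s_at or x_at can bind more than the named gene. The brightest probe set carried such a suffix in 5 of these 22 genes (22.7%), in 1 of the 12 SR and Tra2 genes and in 0 of the 16 tissue-specific regulators, where 8.78% of all genes had one.

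Ptbp1, the pyrimidine-tract protein of most non-neural cells, was at 11.92 and 11.94. Ptbp2, its paralog in developing neurons, whose transcript Ptbp1 keeps low by skipping an exon, was at 9.22 and 9.33. Ptbp3 was at 9.98 and 10.04. All 3 were above background on both arrays, so the transcripts of the non-neural and the neural paralog were measured in the same RNA. Each rests on part of its probe sets: Ptbp2 had a further one at 5.05, Ptbp3 at 7.35 and 5.01, and Ptbp1 at 8.41 and 5.30 (means of both arrays).

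**Figure D2:**
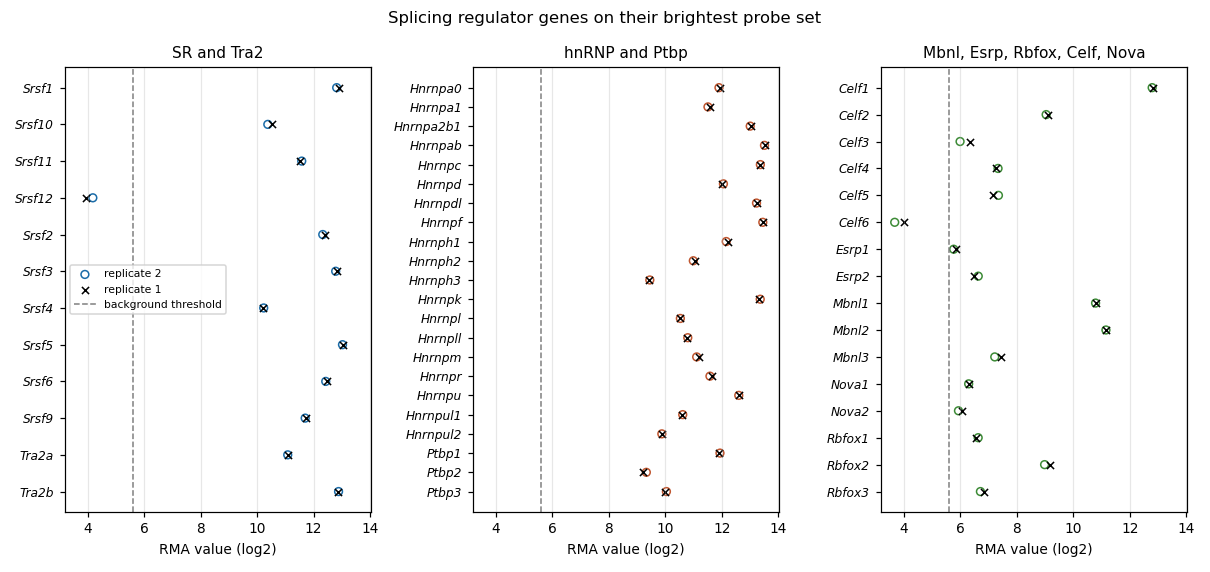
RMA log2 value (x axis) of each of the 50 genes on its brightest probe set, replicate 2 as open circles and replicate 1 as crosses, with the background threshold of 5.59 dashed. Srsf12 and Celf6 lie left of the line, and several Esrp, Nova, Rbfox and Celf genes lie just right of it.

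Of the tissue-specific regulators 15 of 16 were above background, but 6 of the 15 by less than 1 log2 unit, which was true of 0 SR, Tra2, hnRNP and Ptbp genes and of 17.4% of all genes above background. Those 6 were Esrp1, Nova2, Celf3, Nova1, Esrp2 and Rbfox1. The same RNA gave 19 of 19 measured fibroblast markers and 10 of 10 pluripotent cell markers above the threshold, where 68.4% of all genes were. The pluripotency list opens with Pou5f1 (12.65 and 12.62), Nanog (12.15 and 12.06), Sox2 (12.08 and 12.14) and Klf4 (11.19 and 11.26). From bulk RNA, few cells with much of a transcript and many cells with little cannot be told apart.

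The muscleblind genes encode zinc finger proteins that are sequestered by expanded CUG repeats in myotonic dystrophy. Mbnl1 was at 10.82 and 10.79, and Mbnl2 at 11.16 and 11.15, each over 3 log2 units above the threshold. Mbnl3, the family member on the X chromosome, was at 7.45 and 7.22. All 3 were above background on both arrays. The fibroblast markers, among them Col1a1 (12.69 and 12.66), Col1a2 (14.88 and 14.87), Col3a1 (14.87 and 14.86) and Col5a1 (12.72 and 12.74), ranged from 8.81 to 14.87 (means). Their part in the Mbnl values was not tested.

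Celf proteins often oppose muscleblind proteins on the same exons. Celf1, expressed in most tissues, was at 12.82 and 12.79, and Celf2, known from brain, heart and T cells, at 9.09 and 9.04. The genes typical of the nervous system lay closer to the threshold: Celf4 was at 7.27 and 7.33, Celf5 at 7.16 and 7.35, and Celf3 at 6.35 and 5.99. Celf6 was at 3.995 and 3.68, below the threshold on both arrays. Celf3, lower on replicate 2 by 0.36 log2 units, had the widest gap between the replicates of the 48 genes above background.

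Rbfox2, the widely expressed member of the family that binds UGCAUG, was at 9.17 and 8.98. Rbfox1, of neurons and muscle, was at 6.55 and 6.63, and Rbfox3, whose product is the neuronal antigen NeuN, at 6.84 and 6.71. The Nova genes, named for antigens of a neurological autoimmune disease, were at 6.30 and 6.29 for Nova1 and 6.07 and 5.93 for Nova2. All were above 5.59 on both arrays, with the neuronal genes close to it.

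Of 11 measured neuron markers 4 were above background, where 68.4% of all genes were. These 4 were Stmn2 (11.54 and 11.59), Nefl (10.56 and 10.71), Nefm (8.71 and 8.99) and Camk2a (6.82 and 6.55). The other 7 were not, among them the synaptic genes Snap25 (3.16 and 3.10) and Syt1 (5.44 and 5.38). Over the neuron markers that passed the threshold on 1 array or both, the median difference, replicate 2 minus replicate 1, was 0.15 log2 units. Their part in the Rbfox, Nova and Celf values was not tested. Of 10 striated muscle markers 5 were above background, beside the same 68.4% of all genes. These 5 were Ckm (6.39 and 6.13), Actn2 (6.07 and 5.74), Myh3 (5.67 and 5.85), Ttn (7.19 and 7.02) and Des (7.34 and 7.12). The muscle regulators Myod1 (4.82 and 4.52) and Myog (4.73 and 4.74) were not. The means of Actn2 (5.91) and Myh3 (5.76) lay below 6.08, the threshold from vomeronasal and taste receptor genes. For the muscle markers that passed on 1 array or both, this median difference was -0.22 log2 units. The part of the muscle markers was not tested either.

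Esrp1 and Esrp2 direct epithelial splicing, for example of the Fgfr2 receptor transcript. Esrp1 was at 5.85 and 5.76, only 0.22 log2 units above the threshold on average, and Esrp2 at 6.49 and 6.63. Both passed on each array, and Esrp1 has a single probe set here. With vomeronasal and taste receptor genes in place of olfactory ones the threshold was 6.08, and Esrp1, Celf3 and Nova2 were no longer above it. Of 9 measured epithelial markers 8 were above background, including Cdh1 (10.31 and 10.37), which encodes E-cadherin, Epcam (10.33 and 10.39), Krt8 (7.13 and 7.02) and Krt18 (6.77 and 6.79), while Ovol1 (4.73 and 4.32) was not. Among all genes 68.4% were above background. Cdh1 and Epcam are known to be expressed by ES cells too.

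The call for a gene often rested on some of its probe sets. At the level of probe sets, with a threshold of 5.54 from 44 olfactory receptor probe sets, 129 of the 157 (82.2%) were above background, against 62.7% of all 34958. By family these were 38 of 44 for SR and Tra2, 59 of 66 for hnRNP and Ptbp, and 32 of 47 for the tissue-specific regulators. Of the 37 members with several probe sets, 18 (48.6%) had some above and some not, and for genes of the whole array with several the share was 43.3%. The mixed genes were 3 of 8 SR and Tra2 genes, 7 of 17 hnRNP and Ptbp genes and 8 of 12 tissue-specific ones with several probe sets.

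Srsf1 had 6 of 7 probe sets above background, with means from 9.60 to 12.87, and the remaining one at 3.83. Tra2a had 4 of 6, the others at 4.12 and 3.83, and Tra2b had 3 of 5, the others at 5.59, which passed on replicate 2 only, and 5.15. The low probe sets of these genes were unshared, apart from the one of Tra2a at 4.12. In Hnrnpc (3.50), Hnrnpd (3.54), Hnrnpl (4.07) and Hnrnpr (3.68) a single probe set lay below the threshold, while the brightest stood at 13.35, 12.03, 10.52 and 11.63. The span of 9.85 log2 units within Hnrnpc was the widest of any member.

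Mbnl1 was above background on 1 of 3 probe sets, at 10.80, and the others were at 5.09 and 4.90. Mbnl2 was above on all 5, with means from 5.82 to 11.16, and Mbnl3 on all 3, from 5.87 to 7.33. Celf1 was above on 4 of 5, and the remaining one, at 5.84 and 5.34, lay above the threshold on replicate 1 only. Celf2 was above on 3 of 7. Those 3, at 9.06, 8.51 and 8.28, all carry the a_at suffix, which marks targets shared by transcripts of a gene, and the 4 unshared ones lay between 3.45 and 4.45.

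Rbfox2 was above on all 4 of its probe sets, from 6.09 to 9.07, whereas Rbfox1 was above on 2 of 4 and Rbfox3 on 1 of 3. Rbfox3 had probe sets at 6.77, 5.27 and 4.16. Nova1 (6.30 and 3.78) and Nova2 (6.00 and 4.21) each had 1 of 2 above, as did Esrp2 (6.56 and 5.27). All 3 probe sets of Celf4 were above, at 7.30, 7.04 and 6.61. Among Celf4, Nova1, Nova2, Rbfox1 and Rbfox3, Celf4 was thus the one in which every probe set passed. With the median of all probe sets in place of the brightest, 9 of the 16 tissue-specific genes were above background, against 11 of 12 and 22 of 22 in the other families. The calls lost were those of Mbnl1, Celf2, Nova1, Nova2, Rbfox1 and Rbfox3. The share of all genes under the median rule is not given here, so whether this loss is particular to these genes cannot be said.

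**Figure D3:**
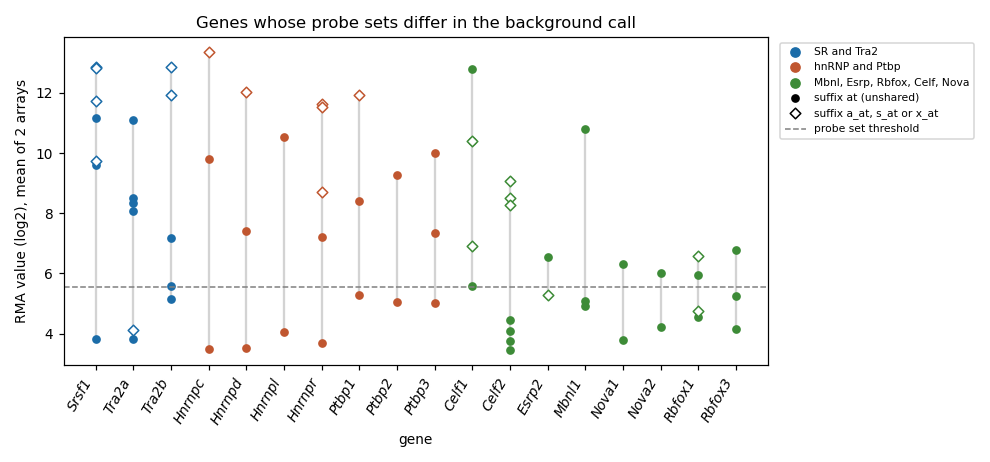
Mean RMA log2 value over both arrays (y axis) of every probe set of the 18 genes in which some probe sets were called above background and others not, by gene (x axis), with the threshold of 5.54 for the mean dashed; the lowest Celf1 point and a Tra2b point at 5.59 lie above that line but failed on 1 array; filled circles are unshared probe sets and open diamonds those with a shared suffix. The brightest probe sets of the SR, Tra2, hnRNP and Ptbp genes lie above 9, and those of the Nova, Esrp, Rbfox1 and Rbfox3 genes below 7.

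The replicates were close for all members. On 1 array or both, 48 members passed the threshold. A difference of 1.5-fold or more was seen in 0 of these 48, where 0.0783% of 12769 genes did, and at 1.2-fold only Celf3 did, where the share was 3.79%. The difference, replicate 2 minus replicate 1, had an SD of 0.092 log2 units over the members and 0.114 over all genes. Its median was -0.017 over the members and 0.015 over all genes. Of the 48 genes 30 (62.5%) were lower on replicate 2, against 43.2% of all genes.

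The spread followed the level. The SD of the difference was 0.048 over the 33 members with a mean of 10 or more, 0.14 over the 8 with a mean from 7 to 10, and 0.17 over the 7 below 7. For all genes in the same ranges it was 0.058, 0.092 and 0.17. The middle range of members holds 5 tissue-specific genes, among them Mbnl3 (-0.23), Celf5 (0.19) and Rbfox2 (-0.18). By family the SD was 0.056 for SR and Tra2, 0.050 for hnRNP and Ptbp, and 0.15 for the tissue-specific regulators. Over all 157 probe sets the difference ran from -0.49 to 0.52, and all 8 with a size of 0.3 or more had a mean below 7.2.

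**Figure D4:**
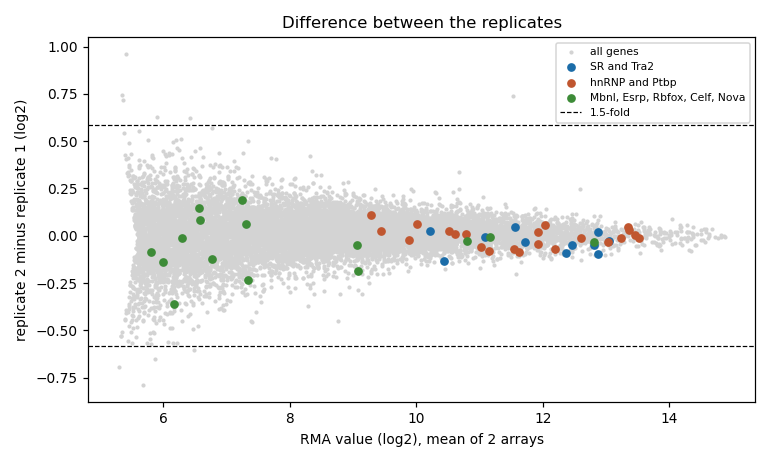
Replicate 2 minus replicate 1 (y axis, log2) against the mean of both arrays (x axis, RMA log2) for the 48 member genes (coloured by family) among 12769 genes (grey), with 1.5-fold dashed. The SR, Tra2, hnRNP and Ptbp points stay within 0.14 of 0, and the tissue-specific points range from -0.36 to 0.19.

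Other genes of the splicing machinery were also mostly above background, beside the 68.4% of all genes. Of the partners of SR proteins, such as their kinases, 15 of 16 were, with the kinase genes Srpk1 (10.59 and 10.50), Srpk2 (9.86 and 9.92), Clk1 (10.87 and 10.93) and Clk2 (8.92 and 8.93). The muscle-enriched kinase gene Srpk3 (4.83 and 4.99) was not. All 17 measured genes of splice site recognition and of the spliceosome core were above background. Among them were U2af1 (12.08 and 12.07) and U2af2 (10.28 and 10.39), whose products bind the 3′ splice site. Sf1 (13.09 and 13.06), which binds the branch point, and Sf3a1 (9.16 and 9.12) also belong to this list. Snrpa of this list had no probe set of that gene alone.

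Of further regulators outside the families 32 of 34 were above background, where 68.4% of all genes were. Some of the 32 lay near the threshold, and with vomeronasal and taste receptor genes as reference 28 of the 34 were above it. Qk, a regulator in glia and muscle, was at 11.86 and 11.93, Khdrbs1, which encodes Sam68, at 11.65 and 11.62, its relative Khdrbs3 at 8.70 and 8.83, and Elavl1, which encodes the RNA stabiliser HuR, at 10.46 and 10.42. Khdrbs2 (5.36 and 5.04) and Rbm24, a muscle regulator (4.69 and 4.54), were not.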

How the data were processed

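The authors deposited log2 values of Affymetrix probe sets, computed with RMA (background correction, quantile normalization, summary over probes), per the submitters' processing notes; its version and the arrays it was run on are not stated there. Per the labels' protocols, Trizol RNA was labelled from 6 µg. Quantile normalization would hide a change shared by most genes, and RMA gives no detection call. The small number of arrays limits the precision. The series matrix columns of both arrays were used, and 0 were left out.

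Probe sets were named through the platform annotation: 34958 had 1 gene symbol, 932 several and 9211 none, and 0 symbols changed against the RefSeq gene table of GRCm38.p6. The brightest probe set by mean stood for a gene. Thresholds are percentiles of olfactory receptor genes. The replicate difference was taken over genes that passed on 1 array or both, and a size of 1.5-fold was the limit for a call. With 1 group no test was run and no p-value is given. Every member gene is named; each other list is shown by its first 4 genes called and its first 2 not called, in list order, and Des was added after its value was seen. The members and lists were chosen with earlier results of these data known. Alternatives were other thresholds and reference genes, other probe set rules, median centring, loess (fraction 0.3) and each array alone. Protein sequences were not used here. Python 3.11.15, pandas 2.3.3 and statsmodels 0.14.6 were used.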

Additional observations from a re-analysis of the deposited data

How the results depend on the processing

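Of 80 alternative values for the main counts and spreads, 77 stayed within 1.5 times the reported value, or for the median difference within the SD over members, and 3 did not. This count is no measure of stability. Median centring moves an array's values and its threshold together, so the calls and the SD of the difference could not change. The limit of 1.5 times is also wide, and a fall from 32 to 28 genes stayed within it. The 129 member probe sets above background became 78 of 101 with unshared probe sets only. Fewer were left by construction, and the threshold was taken anew from unshared probe sets. At the main threshold 76 of these 101 were above background. The 15 tissue-specific genes above background became 9 when a gene was given the median of its probe sets, and 0 genes past 1.5-fold became 1 at 1.2-fold, a lower limit. With the vomeronasal and taste receptor genes as reference the threshold was 6.08, and Celf3, Esrp1 and Nova2 were no longer above it; with unshared probe sets only, Celf2 was not. The 32 further regulators became 28 with that reference (without Elavl3, Elavl4, Rbm20 and Rbm47), 30 with the highest olfactory receptor gene, 29 with the median of probe sets (without Elavl4, Rbm47 and Srrm4) and 27 of 30 with unshared ones (Raly and Srrm4 lost their calls). Of the splice site recognition and spliceosome core genes 14 of 15 were above background with unshared probe sets only, where Snrpb2 lost its call. Each array alone gave 48 of 50 member genes and 130 of 157 probe sets. Calls could only be gained there, since a single array drops conditions of the call. With the median of probe sets the level of 37 of 50 genes moved by more than its SD, falling by 0.23 to 5.70 log2 units. That direction is by construction: these are the 37 genes with several probe sets, whose median cannot exceed the brightest. With unshared probe sets only, which likewise cannot raise a level, 18 of 48 levels moved by more than their SD. No paired analysis was possible because there is 1 group. Signal over background limits the Esrp, Nova, Rbfox1 and Celf3 calls, where weak expression and silence look alike.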
